A study of Mus musculus with 9 samples.

Results

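Transport of lactate across the cell membrane and its interconversion with pyruvate were followed through 7 genes in YAMC cells, a conditionally immortalized mouse intestinal epithelial line that the labels assign to small intestine. The genes were 3 monocarboxylate transporters (Slc16a1, Slc16a3 and Slc16a7), their chaperones embigin (Emb) and basigin (Bsg), and the lactate dehydrogenase subunits Ldha and Ldhb. All 7 were matched by symbol among the 28059 Entrez gene IDs of the deposited table. The set was chosen by measured values: it was drawn up because Emb, Slc16a1 and Slc16a3 were all higher in both Cdk8 knockout clones than in parental cells, and the others were added as their partners. Comparisons of the clones with parental cells are therefore given for these genes as a description, without a test. The difference between the 2 clones did not enter the choice, although it rests on the same libraries, and was tested.

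The study had 9 RNA libraries in 3 groups of 3: parental YAMC cells labelled wildtype, and 2 CRISPR knockout clones, clone 1 and clone 19, both labelled Cdk8 -/-. CDK8 is the kinase of the Mediator kinase module, and the question of the design was which transcripts change without it. All cells grew at 32 °C and were taken in the logarithmic phase. The label of the tissue stands against the line's name, which is short for young adult mouse colon. Each knockout group is a single clone, and no group of Cdk8-intact clones was used here, so effects of the lost kinase and of the cloning step cannot be told apart. The labels do not say whether the libraries of a group came from separate cultures, so every p-value measures only the spread between these libraries, which may be technical.

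Monocarboxylate transporters of the SLC16 family carry lactate, pyruvate or ketone bodies together with a proton, in the direction set by the gradients. MCT1 (Slc16a1) is widely expressed and also takes up short-chain fatty acids in the colon, MCT4 (Slc16a3) is known for export from glycolytic cells, and MCT2 (Slc16a7) is a high-affinity carrier. These proteins reach the membrane with a single-pass immunoglobulin-family partner: basigin for MCT1 and MCT4, and embigin mainly for MCT2, though embigin can also pair with MCT1. Lactate dehydrogenase is a tetramer of LDHA subunits, which favour conversion of pyruvate to lactate, and LDHB subunits, which favour the reverse.

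The estimated depth, read from the smallest steps between low values, was 23.2 to 44.2 megareads a library, and 17974 to 18907 genes had a value above 0. Cdk8 stood at 17.5 to 17.7 RPKM (reads per kilobase of gene and megaread of library) in parental cells, 10.3 to 11.6 in clone 1 and 10.3 to 10.5 in clone 19, so its RNA was lower but present in both clones. Of 17 intestinal epithelial markers, 4 passed the filter on low values (Cdh1, Krt8, Krt18 and Krt19), and 9 were under 0.1 RPKM in every library, with Cdx2 and Alpi listed at 0 throughout. The summed epithelial level was 614 to 632 RPKM in parental cells, 986 to 1040 in clone 1 and 969 to 976 in clone 19, with 3 of the 4 tested markers called higher in clone 1 and 4 in clone 19. Nearly all of this sum was Krt8, Krt18 and Krt19 (130, 392 and 101 RPKM in parental cells), keratins that mesothelial cells also express, while the group means of Epcam, Vil1, Cldn3 and Cldn7 were at most 0.22 RPKM. The intestinal epithelial label was thus not borne out by its defining markers. All 8 mesothelial markers passed, and their summed level was 1070 RPKM in the parental libraries, 1890 to 1940 in clone 1 and 1970 to 1980 in clone 19, with 6 of the 8 called higher and 2 lower in each clone. For comparison, 39.8% of all tested genes were called higher and 32.6% lower in clone 1, and 36.7% and 32.3% in clone 19. Of 12 fibroblast markers 11 passed, with sums of 2420 to 2490, 2550 to 2590 and 2310 to 2360 RPKM. Within these sums the markers went both ways, with 6 called higher and 5 lower in clone 1, and 5 and 6 in clone 19. Col1a1 measured 375, 195 and 151 RPKM in parental cells, clone 1 and clone 19, and Dcn 47.2, 84.5 and 105. Of 8 immune markers only Cd68 passed and of 5 endothelial ones only Kdr, with sums of at most 4.34 and 1.78 RPKM. Of 6 neural and glial markers only Tubb3 passed, with sums of 56.5 to 57.3, 30.4 to 31.1 and 32.6 to 34.6 RPKM. In bulk RNA, fewer cells of a type and less RNA per cell cannot be told apart, and whether the marker shifts have a part in the results that follow was not tested.

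Promoters of the 3 genes that chose the set are shown because these genes were higher together. Of the 7 genes, 5 have an entry in the RefSeq promoter table of GRCm38.p6. The submitters' processing notes name an older build, so the sequences were matched by gene and not by position. The 250 bases before the annotated start are printed 5′ to 3′ on the strand of the gene, with matches to CACGTG (the E-box), ACGTG (the core of the hypoxia response element) and TGACGTCA (the cAMP response element) in capitals.
Slc16a1, chr3:104638414-104638663, plus strand: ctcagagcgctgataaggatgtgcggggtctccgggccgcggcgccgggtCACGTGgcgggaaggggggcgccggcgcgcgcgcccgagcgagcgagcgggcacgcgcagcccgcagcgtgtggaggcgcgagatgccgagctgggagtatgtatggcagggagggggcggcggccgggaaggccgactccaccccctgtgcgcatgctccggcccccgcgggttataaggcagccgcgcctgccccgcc
Slc16a3, chr11:120948817-120949066, plus strand: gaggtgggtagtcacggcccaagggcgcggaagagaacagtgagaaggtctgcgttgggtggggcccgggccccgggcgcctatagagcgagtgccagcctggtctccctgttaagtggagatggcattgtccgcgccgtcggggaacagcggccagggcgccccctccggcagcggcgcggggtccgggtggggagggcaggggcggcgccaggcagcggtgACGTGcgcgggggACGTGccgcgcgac
Emb, chr13:117220323-117220572, plus strand: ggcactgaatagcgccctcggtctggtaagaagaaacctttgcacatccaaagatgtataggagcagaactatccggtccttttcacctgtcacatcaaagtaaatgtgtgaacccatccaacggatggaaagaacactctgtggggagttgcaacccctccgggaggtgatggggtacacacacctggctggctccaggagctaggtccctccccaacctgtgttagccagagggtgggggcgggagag

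The Slc16a1 sequence holds 1 CACGTG, 195 bases before the start, and its ACGTG matches on both strands lie within that motif. Slc16a3 holds 2 ACGTG matches, 23 and 10 bases before the start, and no CACGTG. Emb holds none of the 3 motifs. On either strand, CACGTG occurs in 6.0%, ACGTG in 16.6% and TGACGTCA in 1.5% of the 32851 promoter windows of the same length. The GC box GGGCGG occurs once in each of the 3 promoters, and in 32.7% of all windows. Neither TGACTCA (the AP-1 site) nor TATAAA was present in any of the 3, with shares of 4.5% and 12.4% over all windows. The Slc16a1 and Slc16a3 windows are 76.4% and 73.6% G or C with 37 and 29 CpG, the Emb window is 54.8% with 6 CpG, and the medians over all windows are 52.4% and 6 CpG. For comparison, 1 of the 2 Ldha windows holds 2 CACGTG, 5 ACGTG, 2 GGGCGG and 1 TGACGTCA. Of its ACGTG matches, only that at 30 bases before the start lies outside the CACGTG motifs. The other Ldha window and the Ldhb window hold none of these motifs.

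Slc16a1 (Entrez 20501) was the more abundant transporter in parental cells. It measured 65.5, 65.6 and 64.3 RPKM in the parental libraries, 118, 119 and 118 in clone 1, and 128, 126 and 130 in clone 19. The 3 groups did not overlap, and both clones stood above parental cells. The ratio of means was 1.81 for clone 1 and 1.97 for clone 19, or 0.85 and 0.97 on the log2(RPKM + 0.5) scale, on which all log2 differences are given. Between the clones, Slc16a1 was higher in clone 19 by 0.12 ± 0.02 (SE, n = 3 against 3, adjusted p = 4.7e-04, limma).

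Slc16a3 (Entrez 80879) came close to Slc16a1 in the clones. It measured 45.3, 47.3 and 47.4 RPKM in parental cells, 111, 116 and 112 in clone 1, and 106, 108 and 106 in clone 19. Both clones again lay above every parental library, with ratios of means of 2.42 and 2.29 and log2 differences of 1.27 and 1.19. Clone 19 was below clone 1 by a small margin (log2 difference -0.08 ± 0.025, adjusted p = 0.023, limma). That call was lost when 1 library was left out, whether clone 1 replicate 2 (-0.06, adjusted p = 0.080), clone 19 replicate 1 (-0.075, 0.070) or clone 19 replicate 3 (-0.08, 0.064), and with no mean-variance trend in limma (adjusted p = 0.058). With neighbouring genes subtracted the difference was larger (-0.15, adjusted p = 0.0018). Slc16a7 (Entrez 20503) was listed at 0 RPKM in all 9 libraries.

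Emb (Entrez 13723) had the widest fold range of the 6 genes with a value above 0. Its level was 2.54, 2.82 and 2.19 RPKM in parental cells, 21.4, 21.2 and 21.1 in clone 1, and 13.2, 14.1 and 13.5 in clone 19. All 3 groups were apart, with clone 1 the highest. The ratios of means to parental cells were 8.44 and 5.39 (log2 differences 2.85 and 2.23). Of 12568 tested genes, 1 had a larger log2 difference in clone 1 and 6 in clone 19. Emb moved from above 14.5% of the tested genes in parental cells to above 68.1% in clone 1 and 55.5% in clone 19. Emb was lower in clone 19 than in clone 1 (log2 difference -0.63 ± 0.06, n = 3 against 3, adjusted p = 3.4e-05, limma), and only 32 tested genes were lower still in that comparison. In the GENCODE annotation of GRCm38, Gm17509 overlaps Emb on the opposite strand, and Gm43581 and Gm43585 lie in introns of Slc16a1. The labels do not say that strand was kept, so reads of Emb and Gm17509 cannot be told apart.

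Bsg (Entrez 12215), the general partner of MCT1 and MCT4, was the most abundant of the 7 genes in every group. It measured 187, 191 and 192 RPKM in parental cells, 166, 168 and 162 in clone 1, and 167, 166 and 165 in clone 19. Both clones lay below every parental library, by ratios of 0.872 and 0.876 and log2 differences of -0.20 and -0.19, and by -0.31 and -0.30 with quantile normalization; the direction flipped with neighbouring genes subtracted, as given with the gene neighbourhoods. The 2 clones overlapped and differed by 0.01 ± 0.02 (adjusted p = 0.80, limma), so no difference was detected between them.

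**Figure D1:**
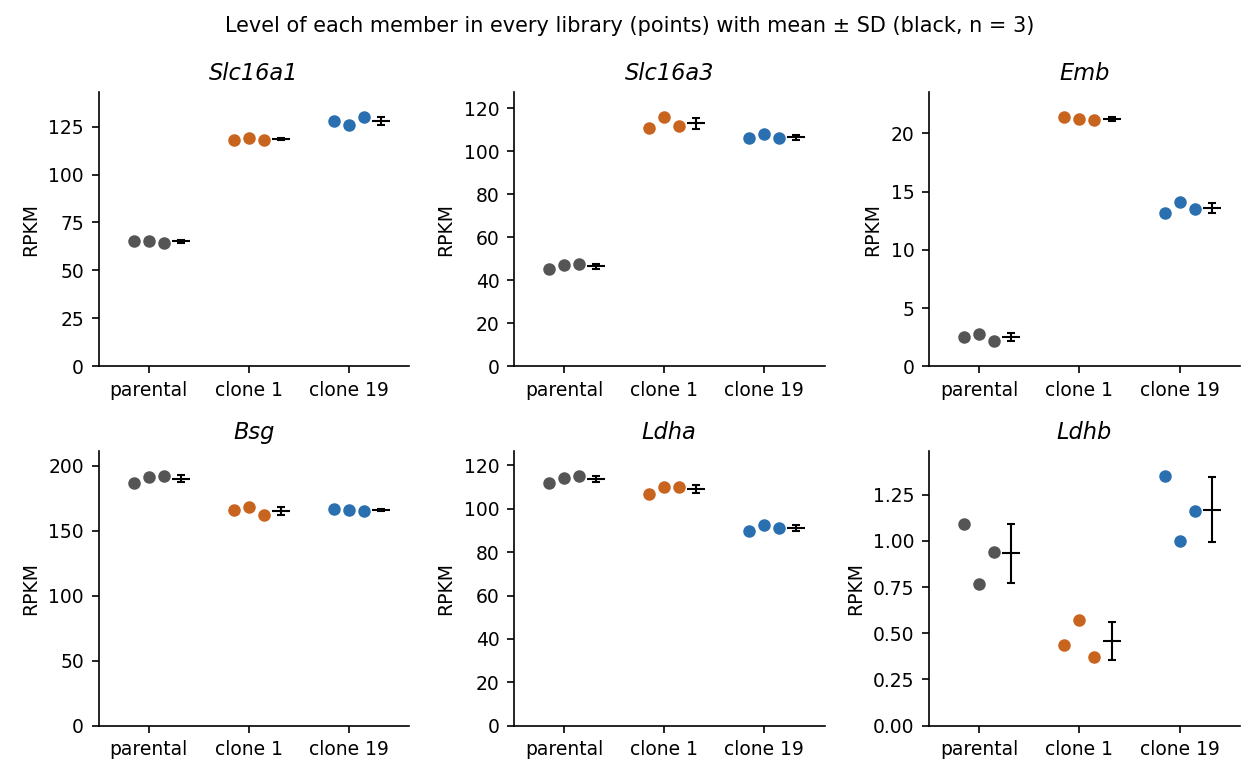
RPKM (vertical axes, each from 0) of 6 genes in the 9 libraries, by group; each point is 1 library and black marks give the mean ± SD (n = 3). Slc16a1, Slc16a3 and Emb stand higher in both clones, with Emb at 2.19 to 2.82 RPKM in parental cells against 21.1 to 21.4 in clone 1; Slc16a7, listed at 0, is not drawn.

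The dehydrogenase subunits did not follow the transporters. Ldha (Entrez 16828) was 112, 114 and 115 RPKM in parental cells, 107, 110 and 110 in clone 1, and 89.7, 92.6 and 91.2 in clone 19. Both clones lay below parental cells, clone 1 by a ratio of 0.962 and clone 19 by 0.803 (log2 differences -0.06 and -0.32). In clone 1 the log2 difference was -0.09 with median-ratio scaling and -0.18 with quantile normalization. Clone 19 was below clone 1 by -0.26 ± 0.02 (n = 3 against 3, adjusted p = 6.3e-06, limma).

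Ldhb (Entrez 16832) was near the limit of the filter, which asked for 1 RPKM in at least 3 libraries: exactly 3 reached it. These were parental replicate 1 and clone 19 replicates 1 and 3. No clone 1 library reached the limit, so Ldhb entered the test only through the other groups. It measured 1.09, 0.768 and 0.938 RPKM in parental cells, 0.434, 0.570 and 0.370 in clone 1, and 1.35, 0.999 and 1.16 in clone 19. Clone 1 lay below both other groups, while clone 19 and parental cells overlapped. The log2 difference to parental cells was -0.58 in clone 1 (-0.89 with a pseudocount of 0.1 and -0.37 with quantile normalization) and 0.22 in clone 19 (0.14 without parental replicate 2 and 0.15 without clone 19 replicate 1). Clone 19 was above clone 1 by 0.80 ± 0.115 (adjusted p = 3.2e-04, limma), and 94 tested genes had a larger difference in that comparison. As the filter was passed through no clone 1 library, this p-value and this place are given as a description. By the estimated depth and an exon length from GENCODE these levels are about 16 to 75 reads a library. A near-identical copy, Ldhb-ps, was listed at 0.19 to 0.229 RPKM in parental cells, 0 to 0.0803 in clone 1 and 0.177 to 0.401 in clone 19. Like Ldhb, this copy was lowest in clone 1. Some genes known for many processed copies were listed low, such as Gapdh at 4.26 and Ppia at 3.01 RPKM in parental cells, against 1410 for Actb; the counting rule is not given in the sources used here, and whether reads of Ldhb were shared with copies or lost was not tested.

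RPKM is a level per length, and the genes were ranked within a group by their listed values. As the counting rule is not given, the order holds for levels as listed. Whether reads of Ldha or other members were lost to copies was not tested. The order in parental cells was Bsg, Ldha, Slc16a1, Slc16a3, Emb, Ldhb and Slc16a7, and in both clones Slc16a1 and Slc16a3 came before Ldha. No neighbours in these orders overlapped over their 3 libraries, though in clone 1 Slc16a3 (111 to 116 RPKM) and Ldha (107 to 110 RPKM) nearly met. Of the 6 genes with a value above 0, 3 lay wholly above and 3 wholly below the parental libraries in clone 1. In clone 19, 3 lay above, 2 below and Ldhb overlapped. The share of all tested genes lying wholly apart in this way was not computed, and the calls that follow are another measure. Over all tested genes the calls at an adjusted p under 0.05 were 72.4% in clone 1 (39.8% higher and 32.6% lower) and 69.0% in clone 19 (36.7% and 32.3%); since these contrasts chose the genes, nothing is read from the counts. Between the clones, 5 of the 6 were called, 2 higher in clone 19 (Slc16a1 and Ldhb) and 3 lower (Slc16a3, Emb and Ldha). Of all tested genes 43.0% were called in this comparison, 18.5% higher and 24.5% lower. Ldhb, which passed the filter through no clone 1 library, is counted here as a description only.

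**Figure D2:**
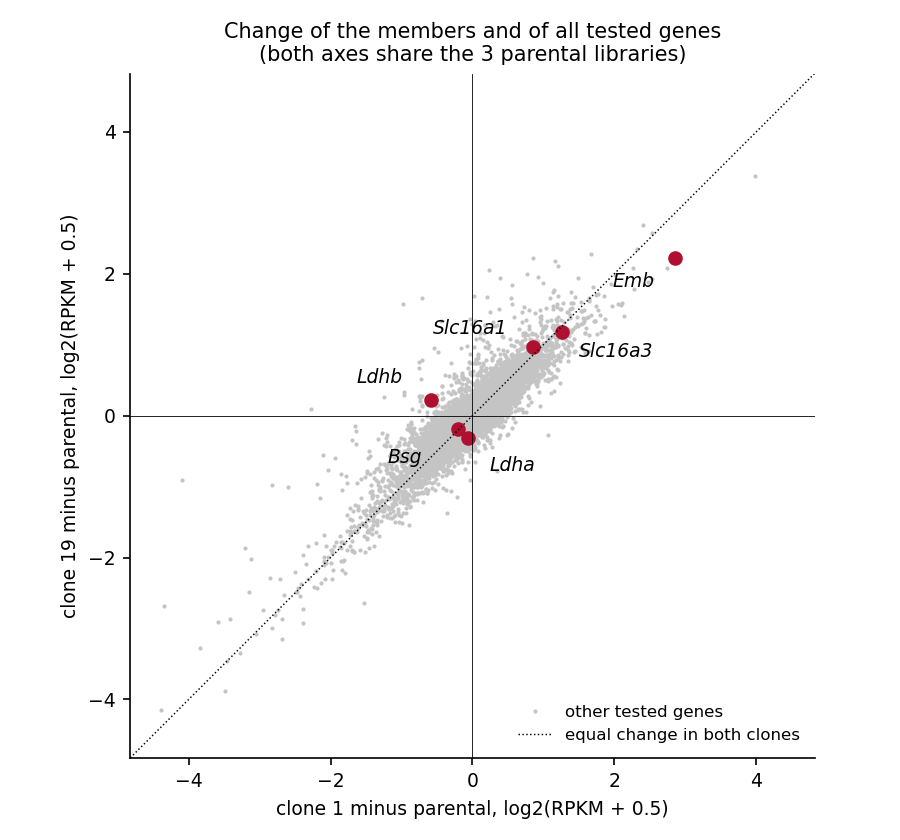
Difference from parental cells on the log2(RPKM + 0.5) scale in clone 1 (horizontal) and clone 19 (vertical) for all 12568 tested genes (grey) and 6 members (red); the dotted line marks equal differences, and both axes share the parental libraries. Emb lies at 2.85 and 2.23, near the upper end of all genes, Slc16a1 and Slc16a3 at 0.85 to 1.27, and Bsg and Ldha close to 0.

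Sums and shares of the members were computed in each library. Slc16a1 and Slc16a3 together came to 111, 113 and 112 RPKM in parental cells, 229, 235 and 229 in clone 1 and 234, 234 and 237 in clone 19. The clones overlapped in this sum, although each transporter alone was called different between them in opposite directions. The Slc16a1 share of the sum was 58.3 ± 0.787% (SD, n = 3) in parental cells, 51.1 ± 0.534% in clone 1 and 54.6 ± 0.632% in clone 19, with no overlap between groups. Exact permutation tests of 3 against 3 cannot give a two-sided p under 0.1, so none was run on these sums and shares.

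The summed chaperone level, most of it Bsg, did not follow the transporter sum, while Emb alone had larger ratios to parental cells than either transporter. Emb and Bsg together measured 190, 193 and 194 RPKM in parental cells, 187, 190 and 183 in clone 1 and 181, 180 and 179 in clone 19. Embigin was 1.31 ± 0.167% of that sum in parental cells, 11.4 ± 0.168% in clone 1 and 7.55 ± 0.253% in clone 19. The ratio of the 2 transporters to the 2 chaperones was 0.581 ± 0.00463 in parental cells, 1.24 ± 0.0146 in clone 1 and 1.31 ± 0.0147 in clone 19. Per unit of Ldha, the transporter sum was 0.985 ± 0.0123 in parental cells, 2.11 ± 0.0299 in clone 1 and 2.58 ± 0.042 in clone 19. Ldhb was 0.814 ± 0.145% of the summed Ldha and Ldhb level in parental cells, 0.417 ± 0.0905% in clone 1 and 1.27 ± 0.207% in clone 19. These shares rest on the Ldhb level as listed, which is uncertain as given above. The ratios to Ldha and to the chaperones likewise rest on levels as listed.

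**Figure D3:**
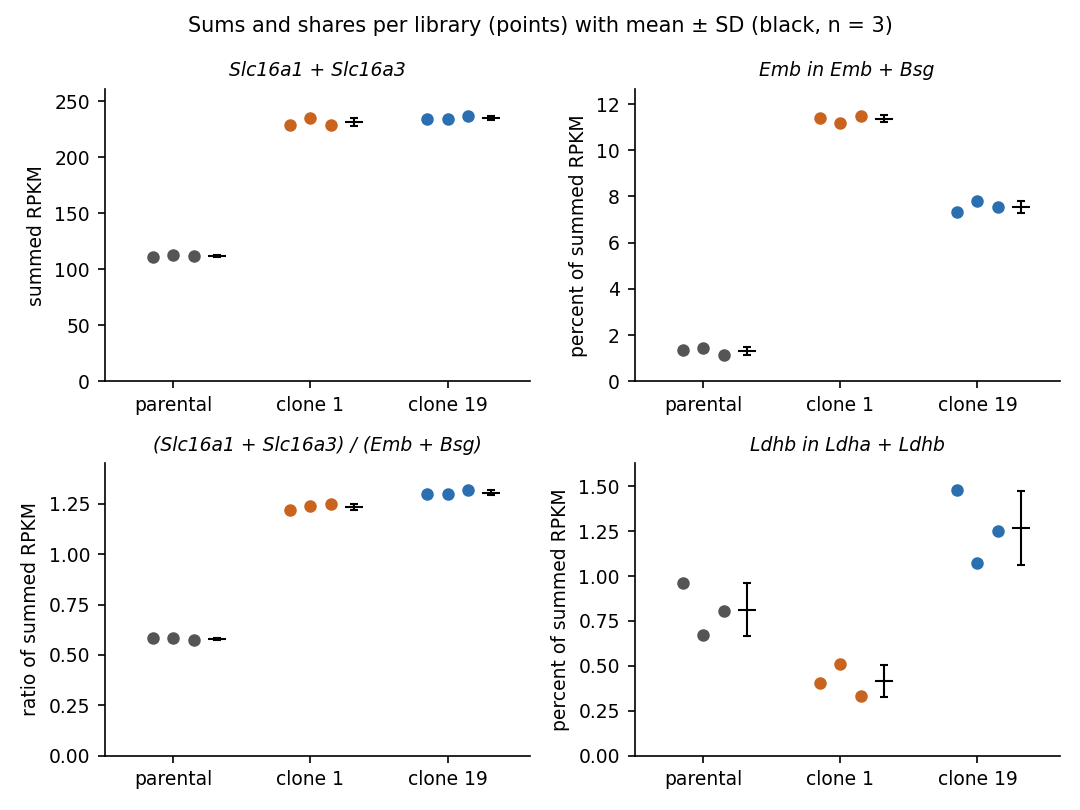
Sums, shares and a ratio of RPKM values (vertical axes from 0) in the 9 libraries by group, with the mean ± SD (black, n = 3). The transporter sum is 111 to 113 RPKM in parental cells and 229 to 237 in the clones, where its ratio to the chaperone sum stands at 1.22 to 1.32; the embigin share is largest in clone 1.

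Each gene was also set beside the 50 nearest tested genes in the GRCm38 gene order. Around Slc16a1 on chromosome 3, 38 of 50 neighbours were called higher and 3 lower in clone 1, and 40 and 4 in clone 19, with medians of 0.31 and 0.33. Over all tested genes, 39.8% were called higher and 32.6% lower in clone 1, and 36.7% and 32.3% in clone 19. Above Slc16a1 stood 4 neighbours in clone 1, up to Wnt2b at 1.37, and 3 in clone 19, up to Tent5c at 1.44. With the neighbours' median deviation subtracted, the Slc16a1 difference to parental cells was 0.565 and 0.66. Around Bsg on chromosome 10, 45 of 50 were called lower and 2 higher in clone 1, and 44 and 3 in clone 19, with medians of -0.39 and -0.36. With these subtracted, Bsg stood above parental cells, by 0.18 in clone 1 and 0.19 in clone 19.

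Around Slc16a3 on chromosome 11 the neighbours had medians of 0.12 and 0.175 and none was as high as Slc16a3, which stood at 1.17 and 1.02 after subtraction. Around Emb on chromosome 13 the medians were 0.09 and 0.05, and no neighbour was as high as Emb, which stood at 2.78 and 2.175 after subtraction. The neighbours of Emb reached as far as Srek1, at -13482 kb. The highest of those neighbours, named after its values were seen, was Fgf10, a fibroblast growth factor, at 2.10 ± 0.06 and 1.57 ± 0.06 (adjusted p = 4.1e-10 and 4.0e-09, limma). Emb and Slc16a3 were chosen for being higher than in parental cells, so their place above all neighbours is a description. Ldha and Ldhb lay among neighbours with medians between 0.01 and 0.08 in the clones.

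**Figure D4:**
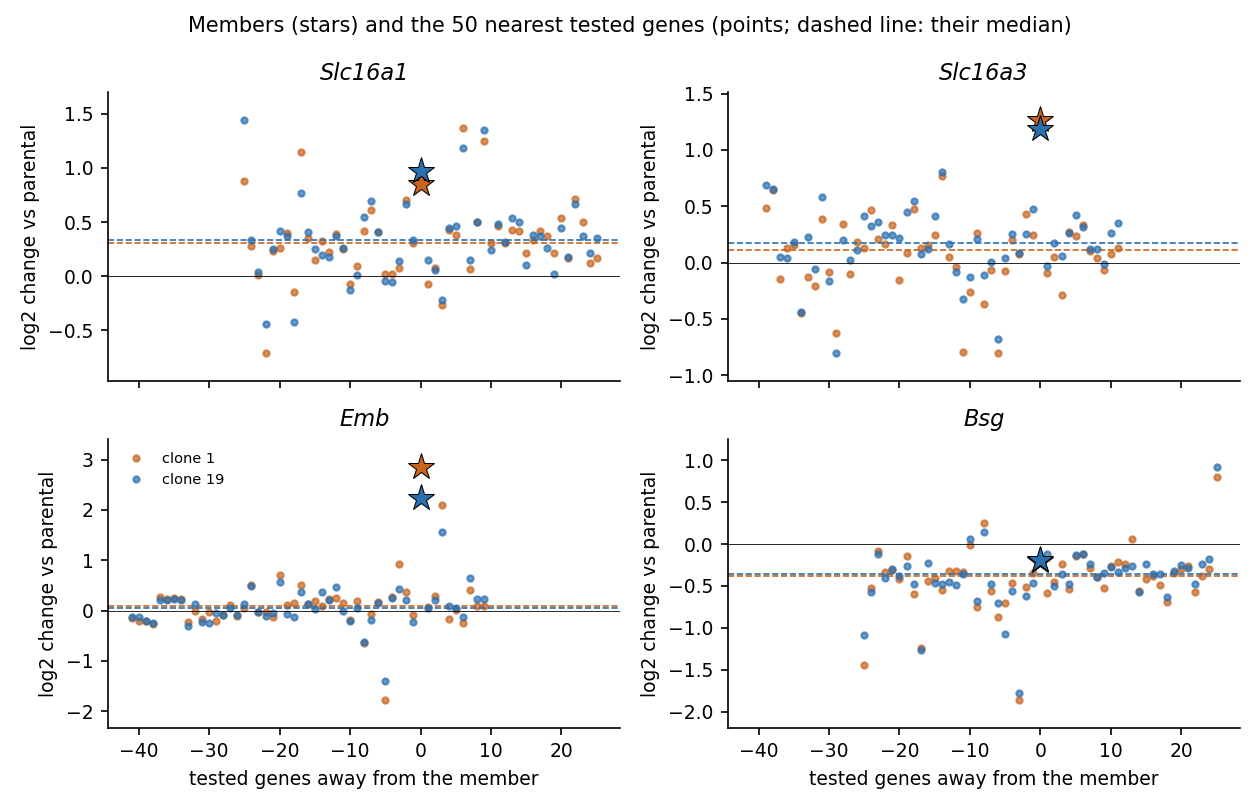
Log2 difference from parental cells of Slc16a1, Slc16a3, Emb and Bsg (stars) and of the 50 nearest tested genes (points), by place in the gene order (horizontal axis), in clone 1 (orange) and clone 19 (blue); dashed lines give the neighbours' medians, and the Bsg stars coincide. Slc16a1 lies in a stretch with medians of 0.31 and 0.33 and Bsg in one with -0.39 and -0.36. Above Slc16a1 stand 4 neighbours in clone 1 and 3 in clone 19. Emb and Slc16a3, which were chosen for being higher in the clones, stand above all their neighbours.

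The genes most like each transporter and Emb over the 9 libraries were found by the root mean square difference of mean-centred log2 values. Slc16a1 was matched most closely by Upk1b, a uroplakin and one of the mesothelial markers listed (difference 0.019; 363, 645 and 703 RPKM in parental cells, clone 1 and clone 19). Ssx2ip (0.039) and Slc9a3r1, the scaffold NHERF1 (0.041), were also among the nearest. For Slc16a3 the nearest were Nedd9, a focal adhesion scaffold (0.048; 13.3, 32.8 and 29.1 RPKM), Aldh1a1, a retinaldehyde dehydrogenase (0.057), Ak5, an adenylate kinase (0.059), and Dipk2a (0.060). Emb was nearest to Fndc3c1 (0.101; 1.68, 14.1 and 8.70 RPKM), to 2 IDs without a name in the tables used, and to Nt5e, the ectonucleotidase CD73 (0.209). The members were less alike than these: of 12568 tested genes, 148 were nearer to Slc16a3 than Slc16a1 was (0.172), and 423 nearer to Slc16a1 than Slc16a3 was. Emb stood farther off, with 9116 tested genes nearer to Slc16a3 (0.663) and 12076 nearer to Slc16a1 (0.829) than Emb was. Seen from Emb, 89 tested genes were nearer than Slc16a3 and 284 nearer than Slc16a1. The measure grows with the size of a change, so it cannot tell a larger change from an unlike pattern. It also takes in the rise over parental cells by which Emb, Slc16a1 and Slc16a3 were chosen, so their places to each other are a description.

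Other genes of lactate and pyruvate handling were described from 7 lists with 89 genes, none of them a member; 68 passed the filter. In clone 1, 32 were called higher and 20 lower against parental cells, with a median log2 difference of 0.07 against 0.04 for all tested genes. In clone 19 the counts were 26 and 21 with a median of 0.04 against 0.02. With neighbouring genes subtracted the split in clone 1 was 24 higher and 25 lower. As 72.4% and 69.0% of all tested genes were called, the shares of 52 and 47 of 68 are near the background. Between the clones 15 were called higher in clone 19 and 20 lower, where 18.5% and 24.5% of all tested genes were.

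Among the 11 other SLC16 genes, 5 passed the filter, of which 4 were called higher and 0 lower in clone 1, and 3 and 0 in clone 19. Of all tested genes 39.8% were called higher and 32.6% lower in clone 1, and 36.7% and 32.3% in clone 19. These shares stand beside the counts of each list below as well. With 5 genes, nothing is read from the direction. Slc16a6, whose mean was 2.86 ± 0.014 RPKM (SD, n = 3) in parental cells, rose in both clones, to 6.89 ± 0.252 and 4.44 ± 0.486 (log2 differences 1.14 and 0.55, adjusted p = 4.8e-08 and 2.0e-05, limma; 0.32 in clone 19 with neighbouring genes subtracted). Slc16a13 rose from 2.08 to 2.68 and 3.03 RPKM (0.30 and 0.46). The third chaperone of this protein family, neuroplastin (Nptn), measured 99.8 ± 1.26, 104 ± 4.02 and 87.1 ± 1.66 RPKM. It did not pass in clone 1 (0.06, adjusted p = 0.084, limma) and fell in clone 19 (-0.20, adjusted p = 8.1e-05, limma). The sodium-coupled carriers Slc5a8 and Slc5a12, the lactate receptor Hcar1 and the dehydrogenases Ldhc, Ldhd and Ldhal6b were below the filter, with no library over 0.798 RPKM.

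Genes that bring pyruvate into mitochondria went both ways. Of 14 that passed the filter, 7 were called higher and 3 lower in clone 1, and 5 and 2 in clone 19. Pdk1, a kinase that inhibits pyruvate dehydrogenase, fell from 3.54 ± 0.207 to 1.89 ± 0.0601 and 2.32 ± 0.0452 RPKM (log2 differences -0.76 and -0.52, adjusted p = 3.3e-07 and 8.4e-06, limma). Other genes of this kinase family were called higher in both clones, Pdk3, at 28.3 RPKM in parental cells, by 0.21 and 0.22 and Pdk2 by 0.20 and 0.21. Of the genes of the phosphatase that acts against these kinases, the catalytic subunit gene Pdp2 rose by 0.49 and 0.45 and the regulatory subunit gene Pdpr by 0.51 and 0.42. The other catalytic subunit gene, Pdp1, at 4.53 RPKM in parental cells against 2.36 for Pdp2, fell in clone 1 (-0.12, adjusted p = 0.047, limma); its value in clone 19 was -0.03 (adjusted p = 0.65, limma). Pdk2, Pdk3 and Pdp1 were named after their values were seen. The E1 subunit gene Pdha1 rose from 84.3 to 110 and 99.2 RPKM (0.38 and 0.23). The calls of Pdk1, Pdp2, Pdpr and Pdha1 held after subtracting the neighbours, but several values shrank, to -0.49 and -0.26 for Pdk1, 0.18 and 0.17 for Pdpr and 0.27 for Pdp2 in clone 19. With quantile normalization Pdha1 was 0.14 in clone 19.

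Glycolysis genes also went both ways, with 7 of 18 called higher and 6 lower in clone 1, and 6 and 7 in clone 19. Pfkl, the liver-type phosphofructokinase, fell from 21.3 ± 1.08 to 8.77 ± 0.143 and 8.58 ± 0.235 RPKM (log2 differences -1.24 and -1.26, adjusted p = 5.7e-10 and 5.0e-10, limma). The other phosphofructokinase genes did not fall with it. Pfkp, at 22.3 RPKM in parental cells, was called higher in both clones (0.20 and 0.06). Pfkm, at 13.9 RPKM in parental cells, was called in neither (-0.10 and 0.045). The hexokinase genes fell, Hk2 from 10.1 to 5.42 and 4.94 RPKM (-0.84 and -0.96) and Hk1 from 16.4 to 10.6 and 8.85 RPKM, by log2 differences of -0.61 and -0.86. Subtracting the neighbours left -0.28 and -0.53 for Hk1. It left -0.87 and -0.905 for Pfkl, which is among the nearest tested genes of Bsg on chromosome 10, most of them called lower. Aldoc, an aldolase, rose from 2.79 to 6.33 and 7.85 RPKM (1.05 and 1.34). The far more abundant aldolase gene Aldoa, at 222, 226 and 219 RPKM, was called in neither clone (0.02 and -0.02). Aldoa, Pfkp and Pfkm were named after their values were seen.

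Of 9 proton, bicarbonate and carbonic anhydrase genes that passed, 4 were called higher and 2 lower in clone 1, and 5 and 2 in clone 19. Car12, a membrane carbonic anhydrase, fell from 1.58 ± 0.0791 to 0.140 ± 0.0133 and 0.249 ± 0.0593 RPKM (log2 differences -1.70 and -1.47, adjusted p = 1.7e-08 and 6.0e-08, limma; -2.80 and -2.28 with a pseudocount of 0.1). Car12 passed the filter only through the parental libraries, where it was high, so its values and calls are a description. Car9, counted among the 5 called higher in clone 19, passed only through the clone 19 libraries. The bicarbonate cotransporter Slc4a4 fell by 0.52 and 0.30. The anion exchanger Slc4a2 rose by 0.21 and 0.17, and with neighbouring genes subtracted its value in clone 19 was 0.29.

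Of 12 reported partners of basigin, 8 were called higher and 4 lower in clone 1, and 5 and 4 in clone 19. Cd276, an immune checkpoint ligand of the B7 family, fell from 11.7 ± 0.259 to 3.17 ± 0.138 and 2.91 ± 0.231 RPKM (log2 differences -1.73 and -1.83, adjusted p = 5.2e-10 and 3.7e-10, limma). Integrin genes split: Itga3 rose from 87.5 to 183 and 173 RPKM (1.06 and 0.98) and Itgb1 from 245 to 392 and 342 RPKM (0.67 and 0.48). Itga6 fell from 12.6 to 13.5 RPKM in the parental libraries to means of 5.59 and 8.83 (-1.15 and -0.53). Subtracting the neighbours left 0.29 and 0.19 for Itgb1, and -0.27 for Itga6 in clone 19.

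Of 9 transcription factor genes that have been linked to lactate genes and passed the filter, 2 were called higher and 5 lower in each clone. Mycn rose from 5.64 ± 0.179 to 11.4 ± 0.713 and 11.1 ± 0.681 RPKM (log2 differences 0.95 and 0.91, adjusted p = 4.6e-08 and 7.1e-08, limma), and Myc, its paralog, fell from 61.0 to 47.5 and 46.8 RPKM (-0.36 and -0.38). Arnt, the partner of the hypoxia-inducible factors, rose from 17.8 to 23.6 and 25.8 RPKM, by 0.39 and 0.52, of which 0.19 and 0.25 were left after subtracting the neighbours. Of the genes of these factors, Hif1a was called lower in both clones, from 44.8 to 39.4 and 40.7 RPKM (-0.18 and -0.14). Epas1 was below the filter. Hif1a and Epas1 were named after their values were seen. Nfe2l2, which drives antioxidant genes, fell from 42.0 to 33.5 and 34.8 RPKM (-0.32 and -0.27). After subtracting the neighbours it was -0.12 in clone 1, and in clone 19 the call ended (-0.06, adjusted p = 0.066, limma).

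**Figure D5:**
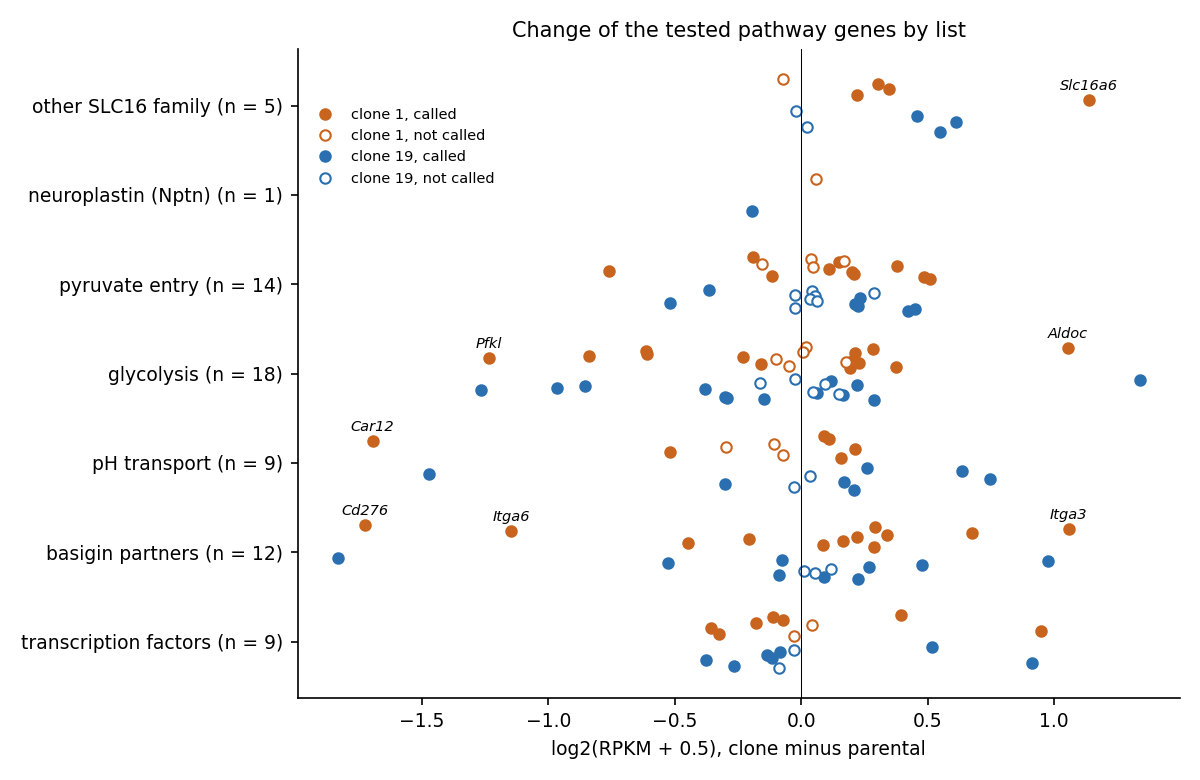
Log2 difference from parental cells (horizontal) of the 68 pathway genes that passed the filter, by list; each point is 1 gene in clone 1 (orange) or clone 19 (blue), filled where called at an adjusted p under 0.05 in limma, and genes past 1 in clone 1 are named. Most lists spread to both sides of 0, with Pfkl, Car12 and Cd276 lowest and Slc16a6, Aldoc and Itga3 highest in clone 1. Car12 passed the filter only through the parental libraries.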

How the data were processed

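RNA of 9 libraries was sequenced. The authors deposited 1 table of RPKM values, with 1 column a library; per the labels' protocols, a TruSeq RNA preparation kit was used on total RNA. GSNAP, DESeq and the build NCBIM37 are named, without role or version, per the submitters' processing notes. How reads were counted, and on which annotation, is not given in the sources used here. RPKM divides by gene length and library reads, so a level can shift with the composition of the RNA.

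From the deposited RPKM, limma 3.58.1 (R 4.3.3) was fitted with a mean-variance trend to log2(RPKM + 0.5) of the 12568 genes with at least 1 RPKM in at least 3 libraries, all 9 libraries in 1 model of group means. Adjusted p-values are Benjamini-Hochberg over all tested genes within a contrast, called under 0.05. A log2 difference on this scale understates the change of low genes. Of the IDs, 24998 were named through RefSeq (GRCm38.p6), 16 through GENCODE, and 3045 had no name. Depth was estimated from 196 genes with a single annotated transcript (quartiles of 41.4 and 44.2 megareads for parental replicate 1), so no count test was run.

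The members and lists were chosen with earlier results of these data known. Named pathway genes were the up to 4 of each list with the largest change called the same way in both clones; genes of like pattern were the 4 nearest to Emb, Slc16a1 and Slc16a3; some genes that meet these rules are not reported here. Alternatives were pseudocounts of 0.1 and 1, no filter and one at 3 RPKM, quantile normalization, median-ratio scaling, array quality weights, no trend, fits of only the compared groups, a replicate block, subtraction of the 50 nearest tested genes, and each library left out.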

Additional observations from a re-analysis of the deposited data

Results flagged for a closer look

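The effects of the 2 clones against parental cells differed, by limma's test of clone 19 minus clone 1 (log2 differences, each with an adjusted p under 0.05), in 5 of the members: Slc16a1 (0.12), Slc16a3 (-0.081), Emb (-0.63), Ldha (-0.26) and Ldhb (0.80). Ldhb passed the filter only through parental and clone 19 libraries, so its call is a description. The same test called 10 of the pathway genes named here. Those higher in clone 19 were Pdk1 (0.24), Aldoc (0.28), Slc4a4 (0.22), Itga6 (0.62) and Arnt (0.12). Those lower in clone 19 were Slc16a6 (-0.59), Pdha1 (-0.14), Hk1 (-0.25), Itga3 (-0.082) and Itgb1 (-0.20; -0.095 with neighbouring genes subtracted). Of all tested genes 43.0% were called in this comparison.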

How the results depend on the processing

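Subtracting the 50 neighbours, Bsg stood above instead of below parental cells, by 0.184 in clone 1 and 0.191 in clone 19; the other member differences from parental cells kept their sign under every alternative run. The number of members called between the clones was 5, and 4 to 5 with a library left out. Pathway calls numbered 52, 47 and 35 in clone 1, in clone 19 and between the clones, and 49 to 52, 43 to 48 and 30 to 36 with a library left out. Same-numbered libraries are not known to share a culture, and of 9 same-numbered pairs 1 had deviations correlated over 0.1 (-0.035 to 0.123). With the replicate block, 5 members and 52, 45 and 34 pathway genes were called. The Slc16a3 call between the clones was the 1 member call that ended in any alternative (adjusted p 0.00181 to 0.080 over 20). Those of Emb (6.17e-06 to 3.17e-04), Slc16a1 (1.9e-04 to 0.00531), Ldha (4.37e-06 to 1.66e-04) and Ldhb (3.27e-04 to 0.00199) held where they could be tested; Ldhb is not among the genes tested at 3 RPKM. Calls between the clones also ended for Itga3 and Arnt with neighbouring genes subtracted and for Slc4a4 without clone 1 replicate 2 or 3 or clone 19 replicate 3; the cause was not tested. Depth limits the statements on Ldhb and on genes listed at 0.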

Other observations

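Some genes related to lactate handling lay below the filter and entered no test. Car2, a cytosolic carbonic anhydrase, measured 0.0911 ± 0.0443 RPKM (SD, n = 3) in parental cells, 0.619 ± 0.0753 in clone 1 and 0.541 ± 0.0970 in clone 19. Slc16a5, which encodes a further monocarboxylate carrier, measured 0.286 ± 0.0790, 0.702 ± 0.0753 and 0.730 ± 0.0748 RPKM. Pdk4, a kinase of pyruvate dehydrogenase, measured 0.135 ± 0.0346, 0.0193 ± 0.0077 and 0.0350 ± 0.0151 RPKM. These genes were singled out after their values were seen.

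The table lists Mpc1, a subunit of the mitochondrial pyruvate carrier, at 1.53 RPKM in parental cells and its processed copy Mpc1-ps at 5.52 RPKM, so the level of this gene is uncertain.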
